A study of Saccharomyces cerevisiae with 7 samples.

Results

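The spliceosome of Saccharomyces cerevisiae carrying the prp8-V1860D allele was compared with that carrying wild-type PRP8 by sequencing the branched intron lariats that each strain had accumulated. The members were the prp8-V1860D and PRP8-WT columns of the deposited tables, 2 of the 7 libraries, with all 280 annotated introns and 78816 of the 174421 listed pairs, a pair being a 5' splice site with the branch point it was joined to. Both strains were mat a with his3, leu2, ura3 and lys2, the chromosomal PRP8 replaced by LYS2 (prp8D::LYS2), the debranching enzyme gene disrupted (dbr1::Kan), and the tested PRP8 allele carried on a plasmid, pRS313-PRP8 or pRS313-prp8-V1860D. Cells were grown in rich media at 30 °C, and their RNA, after ribosomal RNA removal, was digested with RNase R, an enzyme that degrades linear RNA and spares lariats. There was 1 library a side, so no test between the strains was possible, and the intervals below are exact 95% intervals that cover counting error only. Another strain, prp8-N1869D, had the same background with that allele on the plasmid and gave 2 samples. The ratio of its second sample, which sums 2 technical libraries, to its first is given as a measure of how far samples of 1 genotype lie apart.

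As background, Prp8 is the largest protein of the spliceosome and surrounds its RNA catalytic core. In the first step of splicing, the 2'-hydroxyl of the branch point adenosine attacks the 5' splice site, which in yeast nearly always begins with GT and most often reads GTATGT, and the intron becomes a lariat. The RNaseH domain of Prp8, in which valine is replaced by aspartate in this allele, contacts the 5' splice site region and is known for alleles that alter splicing fidelity. Debranching normally opens lariats for decay, so a strain without Dbr1 keeps a record of where branching has taken place.

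Sites chosen with their values in view are shown as examples. Each has 6 bases before the site and 14 bases from it, on the strand of the gene, build R64. Capitals mark the first 6 bases of the would-be intron. The first 4 are annotated 5' splice sites, at XIV:494973, V:362733, VI:64920 and XII:856575.
RPL16B annotated: ttgatgGTACGTaaaaaatt
RPS8B annotated: taaaacGTATGTtctgatac
RPL22B annotated: ccaaacGTACGTtaattttc
RPS22B intron 2 annotated: agcatgGTATGTtccaacta
The next 6 are aberrant sites inside these or other ribosomal protein introns, joined to the annotated branch point. They are examples with a large difference in prp8-V1860D or with many reads, at XIV:494632, V:362913, XII:263328, VI:64856, XII:856989 and X:157160. Sites not shown in BMH2 (21 reads in PRP8-WT and 2 in prp8-V1860D) and RPS27B (19 and 2) differed more, on few reads. The NHP6B site, with many reads and nearly the same share in both strains, is described below.
RPL16B, 341 nt inside: caaaaaGTAATGgtaacttc
RPS8B, 180 nt inside: gaggagGTACTGcaatttaa
RPL22A, 122 nt inside: aaaaatGTACGAaacgaaga
RPL22B, 64 nt inside: taaaaaGTTTGTctattcct
RPS22B intron 2, 414 nt inside: tatgaaGTAAGCaaaaattt
RPS21B, 89 nt inside: agaaaaATAAAAttataata
The last 3 lie upstream of the annotated site, at IX:99414, IV:579465 and XI:93515.
RPL16A, 29 nt upstream: gaaaatGTCTGTtgaaccag
RPS13, 14 nt upstream: tgggtcGTATGCacagtgcc
MTR2, 50 nt upstream: ctccctGTATGTattgcaga
The RPL16B, RPS8B, RPL22A, RPL22B and MTR2 sites were used less in prp8-V1860D, the RPS22B, RPS21B, RPL16A and RPS13 sites more, with the values given below.

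PRP8-WT had 3517283 lariat reads, of which 3042633 joined an annotated 5' splice site to its branch point within 2 nt, and prp8-V1860D had 2174942, of which 1842086 did. Reads fell on 276 and 274 of the 280 introns. The files count branch-spanning reads only, so the PRP8 and DBR1 genotypes could not be checked from them. The 15771 pairs found in both libraries were 30.7% of the PRP8-WT pairs and 36.5% of the prp8-V1860D pairs, and held 98.7% and 98.5% of the reads. Most pairs seen in 1 library thus had very few reads.

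The comparison asked first which kinds of lariat were more or less frequent in prp8-V1860D. Relative to annotated lariats, aberrant 5' splice sites inside introns were less frequent, those upstream of introns more frequent, and pairs with ends over 1000 nt apart or in mitochondrial DNA much more frequent. Aberrant reads inside introns, more than 5 nt from the annotated site, were 38.4 per 10000 annotated reads in PRP8-WT and 28.4 in prp8-V1860D, a ratio of 0.740 (0.716 to 0.765), while the ratio between the prp8-N1869D samples was 1.06. Those upstream were 3.71 and 4.62 per 10000, a ratio of 1.25 (1.14 to 1.36), against 0.926 between the prp8-N1869D samples. Both differences from 1 were larger than that between the samples of 1 genotype, and they had opposite directions.

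Taken whole, most other classes that share an end with an annotated intron hardly differed. Lariats with a 5' splice site shifted by 1 to 5 nt stood at a ratio of 1.04 (1.02 to 1.05), and annotated 5' splice sites joined to an alternative branch point at 1.02 (1.01 to 1.04). Between the prp8-N1869D samples these ratios were 0.769 and 1.24, so that both lay within the spread of 1 genotype. For alternative branch points this held for the whole class but not without PTC7, RCF3 and MCR1, as given below. For shifted sites it held for the whole class but not at each offset. Most of these reads lay 1 nt upstream or 1 nt inside, at ratios of 0.932 and 0.957. The prp8-N1869D samples gave 0.716 and 0.699 there. At 3 nt inside the ratio was 1.79 (1.56 to 2.06), beside 1.17 between those samples. At 2 nt upstream, 2 nt inside and 4 nt upstream it was 1.25, 1.18 and 1.30, beside 0.924, 0.917 and 0.955. Mirror images of annotated introns, with swapped ends on the opposite strand, stood at 1.01 (1.01 to 1.02). Pairs unrelated to any annotated intron depended on their span. Those of up to 200 nt had a ratio of 0.987 (0.977 to 0.996), those over 200 and up to 1000 nt 1.40 (1.37 to 1.43), and those over 1000 nt, at 142 and 322 per 10000 annotated reads, 2.26 (2.23 to 2.29). The prp8-N1869D ratios for these 3 spans were 1.04, 0.952 and 1.04. Their levels were 126 and 120 per 10000 for the middle span, where PRP8-WT had 62.2 and prp8-V1860D 87.2, and 488 and 508 for the longest, above both strains, so PRP8-WT was the lowest of the 4.

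**Figure D1:**
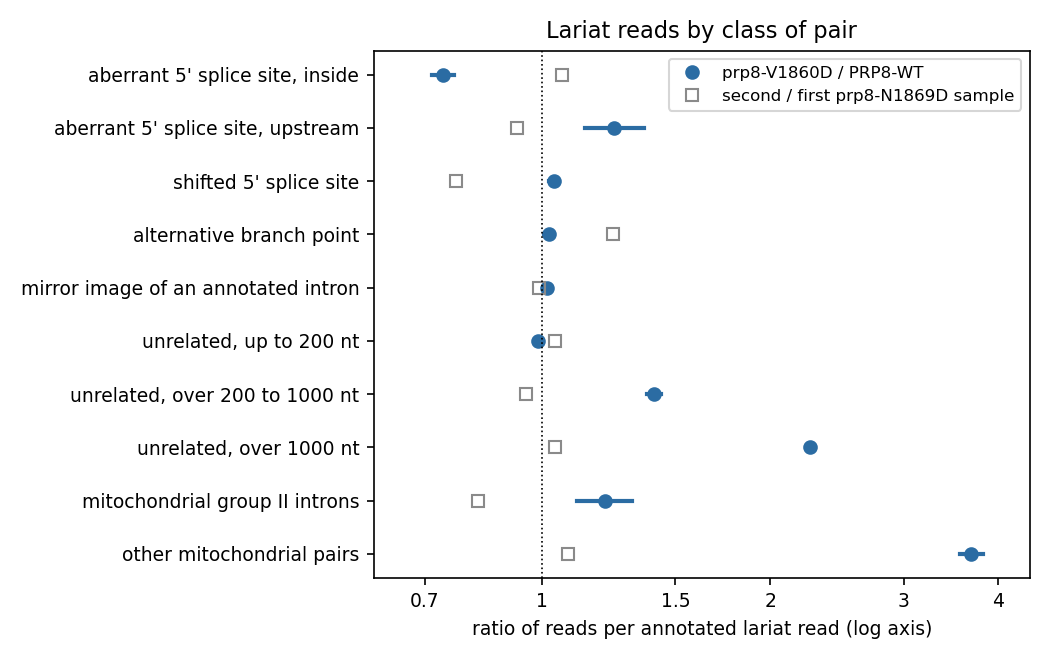
Ratio of reads per annotated lariat read for each class of pair, on a log axis. Filled circles give prp8-V1860D over PRP8-WT with the exact 95% counting interval as a bar, hidden by the circle where narrow, and open squares give the second over the first prp8-N1869D sample. The inside class lies at 0.740 and the upstream class at 1.25, pairs over 1000 nt at 2.26, and mitochondrial pairs other than group II introns at 3.69.

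Mitochondrial pairs contained lariats that the spliceosome does not make. Group II introns of mitochondrial genes splice by their own RNA structure through the same branching chemistry, whereas group I introns use a free guanosine and give no lariat. In COX1, which encodes subunit 1 of cytochrome oxidase, and COB, which encodes cytochrome b, reads joined the first base of an intron to a position within 20 nt of its end for all 4 group II introns and for 0 of the 8 group I introns, in either library. The start of each group II intron, at MT:36955, MT:13987, MT:16471 and MT:25343, and the most used branch point, its base in capitals, are shown because they mark these pairs as lariats of known introns.
COB intron 1 start: gacagaGTGAGAcaagtata
COX1 intron 1 start: ttaatgGTGCGCctctcagt
COX1 intron 2 start: ttttctGTGCGCcgtttcgc
COX1 intron 7 start: attttcGTGCGGtctgaaag
COB intron 1 branch point: agatctacctAtcacaattg
COX1 intron 1 branch point: ttaatttgctAtttcatttt
COX1 intron 2 branch point: taggtttgctActctactct
COX1 intron 7 branch point: aggtctacctAtcgggatac
The branch point was an A lying 8 nt before the next exon in COB intron 1 and COX1 intron 7 and 7 nt before it in COX1 introns 1 and 2.

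COX1 intron 1 had 851 reads in PRP8-WT and 601 in prp8-V1860D, and COB intron 1 had 365 and 291. COX1 intron 2 had 125 and 93, and COX1 intron 7 had 29 and 18. Summed, group II lariats were 4.50 and 5.44 per 10000 annotated nuclear reads, a ratio of 1.21 (1.11 to 1.31), beside 0.823 between the prp8-N1869D samples. The other mitochondrial pairs were 14.0 and 51.5 per 10000, a ratio of 3.69 (3.55 to 3.82), beside 1.08, and the prp8-N1869D samples had 37.0 and 40.1 per 10000. Group II lariats therefore differed between the strains by about as much as between samples of 1 genotype, and the other mitochondrial pairs by much more. This grouping was chosen after the values were seen.

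The second question was which annotated introns took a larger or smaller share of the annotated lariat reads. Introns with a short distance from 5' splice site to branch point were higher in prp8-V1860D and those of intermediate length lower. A share ratio of at least 1.5-fold, among the 256 introns that had 50 or more reads in the 2 libraries combined, and with 0.5 reads added to each count, was reached upward by 17 (6.64%) and downward by 5 (1.95%). Between the prp8-N1869D samples it was reached in either direction by 31 of 254 (12.2%), more than between prp8-V1860D and PRP8-WT. Of the 17 higher introns 15 had the branch point within 100 nt of the 5' splice site.

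The 134 introns with that distance held 14.8% of annotated reads in PRP8-WT and 19.3% in prp8-V1860D, a ratio of 1.30 (1.29 to 1.30), and 86 of the 112 with 50 reads were higher. The 27 introns over 100 and up to 250 nt held 19.7% and 16.2%, a ratio of 0.826, with 24 of 26 lower and a median log2 ratio of -0.29. The 80 over 250 and up to 400 nt held 53.2% and 50.6%, with 61 of 80 lower. The 39 over 400 nt held 12.3% and 13.9%, with 22 of 38 higher. Between the prp8-N1869D samples the same bins had ratios of 1.24, 0.821, 0.918 and 1.09, so the length trend was as large between samples of 1 genotype. Length of the lariat and genotype cannot be told apart from this comparison as sources of the difference in any 1 intron. Fewer lariats made and lariats lost from the library are likewise not separated by these counts.

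**Figure D2:**
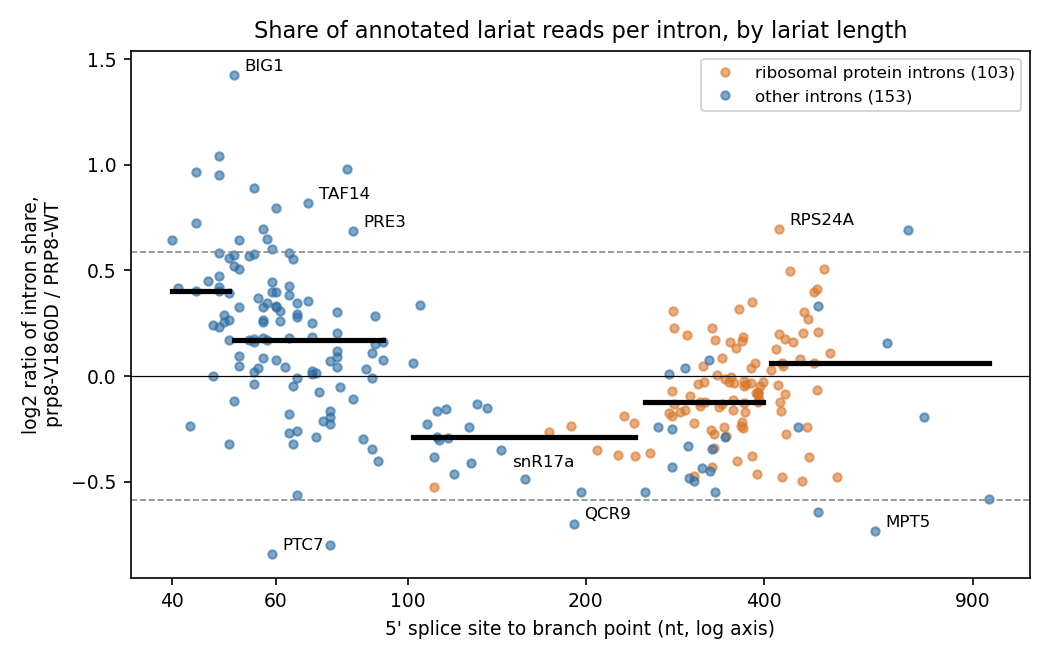
Log2 ratio of each intron's share of annotated lariat reads, prp8-V1860D over PRP8-WT, against the distance from 5' splice site to branch point on a log axis, for the 256 introns with at least 50 reads. Orange points are ribosomal protein introns and blue points others, black bars are medians per length bin, and dashed lines mark 1.5-fold. Of the introns over 100 and up to 250 nt 24 of 26 lie below 0, and 86 of 112 of those within 100 nt lie above.

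The highest share ratio was that of BIG1, which encodes a membrane protein of the endoplasmic reticulum needed for cell wall glucan, with 41 reads in PRP8-WT and 67 in prp8-V1860D, a ratio of 2.70 (1.80 to 4.08). ATG38, an autophagy gene, had 271 and 338 reads and a ratio of 2.06 (1.75 to 2.43). REC114, needed for the DNA breaks that start meiotic recombination, had 2598 and 3097, a ratio of 1.97 (1.87 to 2.08). All 3 have branch points within 79 nt of the 5' splice site. YCL002C (54 and 64 reads), YBR062C (4084 and 4786) and VMA9 intron 1 (6647 and 7449), in the gene of a vacuolar ATPase subunit, had ratios of 1.96, 1.94 and 1.85. Among abundant introns, TAF14, for a subunit of transcription factor TFIID, was 88.9 per 10000 annotated reads in PRP8-WT and 157 in prp8-V1860D, and PRE3, for a catalytic proteasome subunit, 178 and 287. RPS24A, a small subunit protein gene with its branch point 423 nt from the site, was higher too, at 147 and 238 per 10000. The prp8-N1869D samples, with 993122 and 1105661 annotated reads, had 1833 and 2590 in REC114 and 4623 and 7261 in VMA9 intron 1. PRE3 had 30678 and 45463 there and RPS24A 44673 and 63809. These shares thus rose between samples of 1 genotype as well, though by less. For the other high introns these samples are not given here.

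The lowest share ratios were those of PTC7, a mitochondrial protein phosphatase gene, with 353 and 119 reads and a ratio of 0.557 (0.448 to 0.687), and RCF3, for a factor of respiratory supercomplexes, with 199 and 69 and a ratio of 0.573 (0.429 to 0.757). Both concerned the annotated branch point only. Counting all branch points joined to the same 5' splice site, a measure added after seeing the data, PTC7 had 12151 and 6818 reads and a log2 share ratio of -0.11, and RCF3 had 13938 and 9742 reads and 0.21, the opposite direction. MPT5, which encodes an RNA-binding protein of the Puf family, had 844 and 307 reads and a ratio of 0.601 (0.526 to 0.685). QCR9, a subunit gene of respiratory complex III, had 2243 and 837 reads and 0.616 (0.569 to 0.668). NOG2, a GTPase of large subunit assembly, had 860 and 333 reads and 0.640 (0.562 to 0.727), and DBP2, an RNA helicase gene, 1444 and 584 and 0.668. These 4 keep a log2 ratio between -0.72 and -0.58 when all branch points are counted. QCR9 also differed between the prp8-N1869D samples, with a log2 ratio of -0.95, and MPT5, NOG2 and DBP2 lay at 0.20 to 0.40 there, the opposite direction.

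By gene group, the 104 ribosomal protein introns held 67.5% of annotated reads in PRP8-WT and 65.7% in prp8-V1860D. Of the 103 with 50 reads, 35 were higher and 68 lower, with a median log2 ratio of -0.08, beside a median of 0.01 over all 256. RPS24A was the 1 ribosomal protein intron past 1.5-fold, and RPL2A, at 241 and 168 per 10000, had a log2 ratio of -0.53. The 59 introns of large subunit genes had a median of -0.08 and the 45 of small subunit genes -0.08, with 0 and 1 past 1.5-fold. Both introns of the U3 snoRNA genes, whose product guides ribosomal RNA processing, were lower, and snR17a, the intron with the most reads, was 663 and 520 per 10000. The 11 introns of snoRNA host genes had a median of -0.32 over 10 tested, 3 higher and 7 lower, 1 of them past 1.5-fold, with TEF4 at 0.01 and RPL7B intron 1 at 0.06. Between the prp8-N1869D samples the median was -0.17 for ribosomal protein introns and -0.47 for the U3 introns, which had -0.32 between the strains. Both groups thus differed by more between samples of 1 genotype. For snoRNA host introns it was -0.08, a smaller difference than between the strains.

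For the smaller lists, the counts stand beside 129 of all 256 introns higher, 6.64% past 1.5-fold upward and 1.95% downward. Of the 11 meiotic introns only 4 had 50 reads, 2 higher and 2 lower, with REC114 at 0.98 and REC107 at -0.26. The 10 actin and tubulin introns were evenly divided, with ACT1 at -0.24 and ARP2 at -0.22. Of 9 ubiquitin and proteasome introns 6 were higher and 1, PRE3, passed 1.5-fold, with UBC4 at 0.01. Of 8 splicing and mRNA export introns 6 were higher and 0 passed, with LSM7 at 0.26 and LSM2 at 0.08. Of 6 tested introns in genes of mitochondrial proteins 3 were higher and 1 was past 1.5-fold downward, with OM14 at 0.31 and COX4 at -0.48. Of 12 vesicle traffic introns 7 were higher, 1 of them past 1.5-fold, with SFT1 at 0.20 and SAR1 at -0.46. The 217 introns that begin with GTATGT held 83.2% and 83.5% of reads, and the 230 with the branch motif TACTAAC 84.5% and 85.6%, so neither consensus marked a difference in share of the size seen by length.

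The third question was at which positions the aberrant 5' splice sites differed. Inside introns the sites beginning with GT were less used in prp8-V1860D at each number of matches to the consensus from 0 to 3. Upstream sites with 1 to 3 further matches were more used. Those reading GTATGT were less used, with most of their reads in MTR2 and VMA9. Sites without GT were more used, most of these reads lying at 1 position in RPS21B. Inside GT sites had 11245 reads in PRP8-WT and 4577 in prp8-V1860D, or 37.0 and 24.8 per 10000 annotated reads, a ratio of 0.672 (0.649 to 0.696). Leaving out the 5 introns richest in aberrant reads, that ratio was 0.635 (0.599 to 0.673). Grouped by how many of the 4 bases after GT match ATGT, the inside ratio was 0.650 with 0 matches, 0.692 with 1, 0.709 with 2 and 0.650 with 3. Their intervals overlapped one another, with ends at 0.509 and 0.824.

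Upstream GT sites had 1089 and 794 reads, a ratio of 1.20 (1.10 to 1.32), and 1.22 (1.11 to 1.34) without the same 5 introns. By match the ratio was 0.957 with 0 matches, 1.59 with 1, 1.54 with 2 and 1.23 with 3. The prp8-N1869D samples gave 2.04, 0.704, 0.756 and 0.913, so these classes varied widely within 1 genotype too. Full GTATGT sites upstream had 204 and 67 reads, a ratio of 0.542 (0.405 to 0.718), and 0.829 between the prp8-N1869D samples. The MTR2 site, with 97 and 23, and the VMA9 site, with 39 and 15, held most of these GTATGT reads. Sites without GT inside introns had 432 and 657 reads, a ratio of 2.51, but without RPS21B 218 and 110, a ratio of 0.833 (0.657 to 1.05). Sites without GT upstream of introns had 39 and 57 reads, a ratio of 2.41 (1.58 to 3.73), and 1.54 between the prp8-N1869D samples. The 506 sites of PRP8-WT and the 386 of prp8-V1860D had 251 in common, 49.6% and 65.0% of each, which held 96.5% and 97.2% of the aberrant reads.

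An inside site makes a shorter lariat than its intron, and an upstream site a longer one. Inside sites whose lariat was at most 100 nt long had a ratio of 0.866 (0.823 to 0.910), whereas annotated introns of that length had 1.30. Inside sites with a lariat over 100 and up to 250 nt long had 0.533 (0.506 to 0.560), beside 0.826 for annotated introns of that length. Longer ones had 1.46, with a lower limit of 1.33, but 0.702 (0.615 to 0.799) without RPS21B, which moved the first 2 ratios by less than their intervals. The inside ratio was thus below that of annotated introns in each of the first 2 length classes, while in the longest class its direction depended on RPS21B. Upstream sites had 1.88 (1.44 to 2.46), 0.998 (0.872 to 1.14) and 1.42 (1.23 to 1.63) in the same 3 classes.

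At single positions with at least 20 reads, 41 of 56 inside sites were lower in prp8-V1860D relative to their own intron's annotated reads, with a median log2 ratio of -0.48, and 12 of 21 upstream sites were higher, with a median of 0.14. Because PRP8-WT was the deeper library, a minimum over both libraries favours sites frequent there, and the sites were also chosen by their reads in the prp8-N1869D samples alone, an alternative added after seeing the data. Then 24 of 35 inside sites were lower with a median of -0.31 and 8 of 12 upstream sites higher with a median of 0.41.

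**Figure D3:**
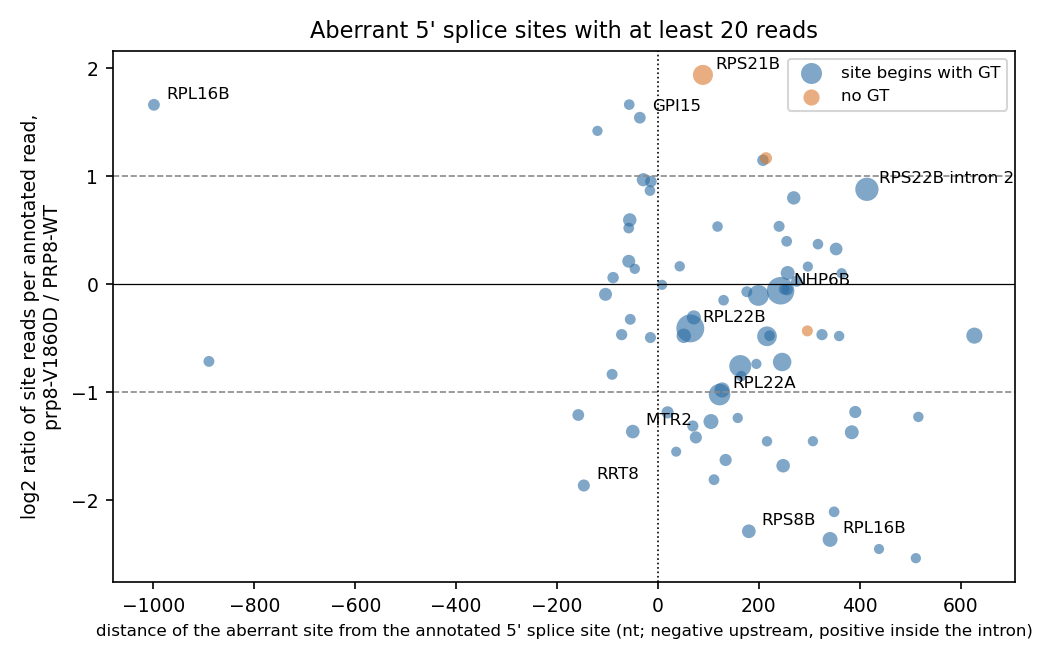
Log2 ratio of reads at each aberrant 5' splice site per annotated read of its intron, prp8-V1860D over PRP8-WT, against distance from the annotated site in nt, for the 77 sites with at least 20 reads. Point area grows with the number of reads, orange points lack GT, and dashed lines mark 2-fold. Of the 56 inside sites 41 lie below 0, and the RPS21B site without GT is the highest point.

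The RPL16B site 341 nt inside, in a large subunit protein gene, had 166 reads in PRP8-WT, where the annotated site had 6189, and 22 in prp8-V1860D, where it had 4299. Its share was 2.61% (2.23 to 3.03) and 0.509% (0.319 to 0.770), below the 5.31% and 8.64% of the prp8-N1869D samples as well. In the same gene a far upstream site, with 17 and 38 reads, went the other way, from 0.274% to 0.876%, with intervals apart. The RPS8B site 180 nt inside, in a small subunit gene, had 111 and 12 reads, 0.609% (0.501 to 0.733) and 0.121% (0.0625 to 0.211). The prp8-N1869D samples had 0.449% and 0.209% there, both between these values. The RPL22A site 122 nt inside had 808 and 242 reads, 7.33% (6.85 to 7.84) and 3.75% (3.30 to 4.24), beside 7.08% and 6.86%. RPS10A, 248 nt inside, had 101 and 16 reads and a site inside the RPS23B intron 160 and 34, with intervals apart in both.

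The site with the most reads, in RPL22B 64 nt inside, had 25.2% (24.4 to 26.1) with 2409 reads in PRP8-WT and 20.3% (19.0 to 21.6) with 791 in prp8-V1860D. The prp8-N1869D samples had 25.1% and 36.9% at this RPL22B site. Their log2 ratio was 0.81, beside -0.41 between the strains, so samples of 1 genotype lay farther apart. NHP6B, a gene for a chromatin protein of the high mobility group, had nearly the same share at its site 243 nt inside, with 2039 reads beside 13586 annotated and 972 beside 6748, and intervals of 12.5% to 13.6% and 11.9% to 13.4%, whereas the prp8-N1869D samples had 24.3% and 48.7%. The RPS22B intron 2 site, 414 nt inside, was higher in prp8-V1860D, at 32.9% (30.9 to 35.1) with 646 reads against 21.1% (19.8 to 22.4) with 818. Both prp8-N1869D samples lay above both of these values.

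RPS21B, a small subunit gene, had 208 reads in PRP8-WT and 547 in prp8-V1860D at a position 89 nt inside the intron that reads ATAAAA. The share was 1.18% (1.02 to 1.35) and 4.38% (4.03 to 4.75), and 4.81% and 6.55% in the prp8-N1869D samples. Another position without GT, 3 nt upstream of the annotated site of RPS19A, behaved alike. It lies at XV:92833 and is shown with the bases from it in capitals.
RPS19A, 3 nt upstream: ttccgtTAGGTAcgtaaaaa
This position had 391 reads in PRP8-WT, against 16464 at the annotated site, and 810 in prp8-V1860D, against 9205, 2.32% (2.10 to 2.56) and 8.09% (7.56 to 8.64), and 6.26% and 10.6% in the prp8-N1869D samples. RPS19B, the paralog, had 0.468% and 0.561% at its matching position, with intervals that overlap. All other introns together had a ratio of 1.22 (1.06 to 1.40) at 3 nt upstream. Whether reads at these RPS21B and RPS19A positions come from branching there was not tested, and RPS19A was singled out after its values were seen.

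Upstream of the annotated site, RPL16A had 50 and 52 reads at 29 nt, 0.191% (0.142 to 0.252) and 0.373% (0.279 to 0.489), and RPS13 had 22 and 27 at 14 nt, 0.667% and 1.29% with intervals that overlap. The prp8-N1869D samples had 0.146% and 0.160% at the RPL16A site and 0.505% and 0.554% at the RPS13 site. The GPI15 site at 36 nt, in a gene of glycolipid anchor synthesis, had 26 and 27 reads beside 29 and 10 annotated ones, a share of 47.3% (33.7 to 61.2) and 73.0% (55.9 to 86.2). The prp8-N1869D samples were nearly as far apart there, at 41.7% and 64.3%. Downward, the MTR2 site at 50 nt, a GTATGT in an mRNA export gene, had 97 and 23 reads, 19.1% (15.8 to 22.8) and 8.30% (5.34 to 12.2). The prp8-N1869D samples had 13.7% and 9.61% at this MTR2 site. VMA9 held another of the upstream GTATGT sites, which is the 5' splice site of its own intron 1 joined to the branch point of intron 2, a lariat that would skip the exon between them, with 39 and 15 reads.

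Summed over each intron, the deposited aberrant counts gave 76 introns with at least 20 aberrant reads over both libraries. Of these 8 (10.5%) had a ratio to annotated reads at least 2-fold higher in prp8-V1860D and 24 (31.6%) at least 2-fold lower, and the median log2 ratio was -0.47. Between the prp8-N1869D samples 10 of 43 (23.3%) differed 2-fold, 6 upward and 4 downward, with a median of 0.12. Intervals of the share were apart in 24 introns, 19 below PRP8-WT and 5 above. The 49 ribosomal protein introns had a median of -0.72, with 19 at least 2-fold lower and 3 higher, and the 27 others a median of -0.03, with 5 lower and 5 higher. With introns chosen by the prp8-N1869D samples the counts were 5 higher and 9 lower of 43, with a median of -0.42.

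The lowest ratios were those of RPL26A, with 29 and 2 aberrant reads, RPS8B, RPL6A, with 26 and 3, RPL35B, with 23 and 3, RRT8, with 59 and 14, and MPT5, with 28 and 3. Shares of these were apart except in MPT5, at 3.21% (2.14 to 4.61) and 0.968% (0.200 to 2.80). At the other end stood ECM33, a cell wall protein gene, with 11 and 24 reads, RPS21B, EPT1, a phospholipid synthesis gene, with 9 and 21, RPL43A, with 9 and 14, APS3, for a subunit of the AP-3 vesicle coat adaptor, with 6 and 16, and STO1, for the large subunit of the nuclear cap-binding complex, with 22 and 23. Intervals were apart in ECM33, RPS21B and EPT1, and overlapped in RPL43A, APS3 and STO1. The EPT1 site 57 nt upstream, with a log2 ratio of 1.66 between the strains, had 2.24% and 0.471% in the prp8-N1869D samples. Their log2 ratio there was -2.11, so samples of 1 genotype lay farther apart. The log2 ratio of ECM33 was 2.31, and 0.93 with sites that begin with GT alone, and a pair on its opposite strand with no shared end had 115 and 439 reads. The 5 introns with the most aberrant reads were RPL22B (2442 and 795), NHP6B (2144 and 1044), RPS22B intron 2 (820 and 646), RPL22A (904 and 290) and RPL24B (928 and 243). RPL24B, a large subunit gene, had 1.80% (1.69 to 1.92) in PRP8-WT and 1.06% in prp8-V1860D, with intervals apart. Its main site, 163 nt inside, had a log2 ratio of -0.76 between the strains. The prp8-N1869D samples had 1.08% and 0.484% at that site, a log2 ratio of -1.16, farther apart than the strains.

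**Figure D4:**
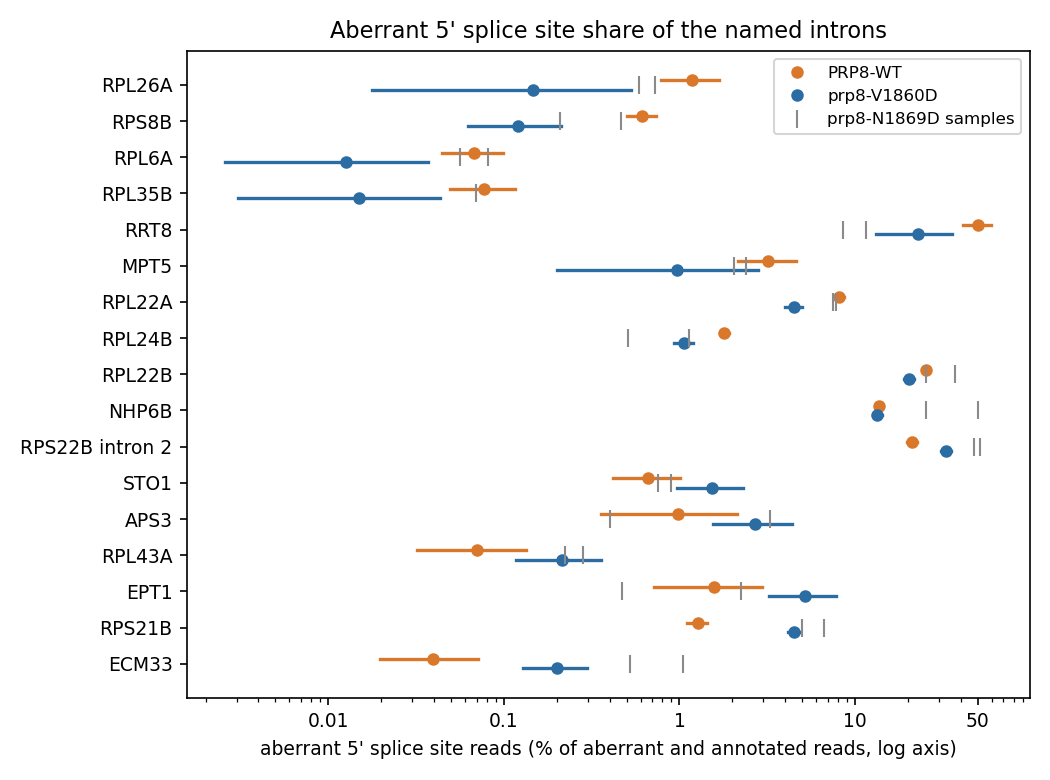
Reads at aberrant 5' splice sites as a percent of aberrant and annotated reads of the intron, on a log axis, for the introns with the highest and lowest ratios and with the most aberrant reads. Circles and bars give PRP8-WT and prp8-V1860D with exact 95% intervals, and grey ticks the 2 prp8-N1869D samples, where a share of 0 (RPL35B, first sample) is not drawn. RPS8B lies at 0.609% and 0.121%, and RPS21B at 1.27% and 4.48%.

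The fourth question concerned branch points. Within the annotated window the position of branching was nearly the same in both strains, with 42.4% of annotated reads at the annotated base in PRP8-WT and 43.7% in prp8-V1860D, 47.3% and 46.3% placed 1 nt before it, and 9.15% and 8.95% placed 2 nt before it. Of 160 introns with at least 20 reads at branch points more than 2 nt away, 5 (3.12%) had a ratio at least 2-fold higher in prp8-V1860D and 6 (3.75%) at least 2-fold lower, with a median log2 ratio of -0.06. Between the prp8-N1869D samples 13 of 127 (10.2%) differed 2-fold. By that 2-fold count alternative branching was no more different between the strains than between samples of 1 genotype. The interval lay below PRP8-WT in 13 introns and above it in 5.

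The most used alternative branch points of the low introns IMD4 and HPC2, and of PTC7 and RCF3, in which they took nearly all reads, are shown with the branched base in capitals, beside the annotated one.
IMD4 annotated: cttattttactaAcattgct
IMD4, 153 nt before: ttcgttctactgActgtgat
HPC2 annotated: tcattttgattaAcaattct
HPC2, 96 nt after: caaacagatactAatgctga
PTC7 annotated: ggacaaatgctaAtcgactc
PTC7, 16 nt after: actcagagactaActtttct
RCF3 annotated: caagtctaattaAccttctt
RCF3, 15 nt before: aataaatcgctaAcacaagt
IMD4 encodes an inosine monophosphate dehydrogenase and its intron holds a snoRNA. Its alternative branch points had 70 reads in PRP8-WT and 8 in prp8-V1860D, 4.67% (3.66 to 5.87) and 0.894% (0.387 to 1.75), of which 46 and 5 were at the one shown. HPC2, for a histone gene repressor, had 70 and 16 reads, 20.1% (16.0 to 24.7) and 8.74% (5.08 to 13.8), and the prp8-N1869D samples 2.91% and 3.93%. CPT1, a phospholipid synthesis gene, had 569 and 286 reads, 13.7% (12.6 to 14.7) and 7.51% (6.69 to 8.39). RPL13B, a large subunit gene, had 208 and 53 reads, 1.07% (0.929 to 1.22) and 0.463% (0.347 to 0.605), and RPS24A had 177 and 79, 0.395% (0.339 to 0.457) and 0.180% (0.142 to 0.224). RPL7A intron 1, with 21 and 4 reads, and RPS21A, with 43 and 10, completed the 6 introns at least 2-fold lower, and their intervals overlapped.

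PTC7 and RCF3 used their annotated branch point rarely. Alternative points took 97.1% (96.8 to 97.4) and 98.3% (97.9 to 98.6) of PTC7 reads and 98.6% (98.4 to 98.8) and 99.3% (99.1 to 99.4) of RCF3 reads. MCR1, for a mitochondrial reductase, had 53.3% (51.3 to 55.3) in PRP8-WT and 64.8% (62.5 to 67.1) in prp8-V1860D, while neither prp8-N1869D sample exceeded 50.2%. These 3 genes held most of the alternative branch reads, 63.2% in prp8-V1860D. Without them the ratio of the class was 0.940 (0.917 to 0.963), from 58.8 to 55.3 per 10000 annotated reads. The prp8-N1869D samples had 68.4 and 67.3 per 10000 without them, a smaller difference than between the strains. The highest ratios, in RFA2 (10 and 13 reads), SIM1 (13 and 15), QCR9 (15 and 12) and RPS4B (13 and 13), rested on few reads with overlapping intervals.

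Unlisted lariats of up to 200 nt, which share no end with an annotated intron, repeated the dependence on length. Among those with a GT site and CTAA near the branch point, 74 sites had at least 50 reads. The 28 over 100 and up to 200 nt had a median log2 ratio of -0.85 per annotated read with 27 lower in prp8-V1860D, the 33 over 60 and up to 100 nt a median of -0.33, and the 13 of up to 60 nt a median of 0.11. Between the prp8-N1869D samples these medians were -0.45, 0.13 and 0.32. The direction of the trend was the same in both. All 3 medians lay lower between the strains, but the minimum over both strains favours sites frequent in the deeper PRP8-WT library. Summed over all such lariats without a minimum, the ratio was 1.15 up to 60 nt and 1.02 over 60 and up to 100 nt. It was 0.653 over 100 and up to 150 nt and 0.434 beyond. The prp8-N1869D samples gave 1.24, 1.02, 0.740 and 0.669, so the middle class did not differ by this measure.

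**Figure D5:**
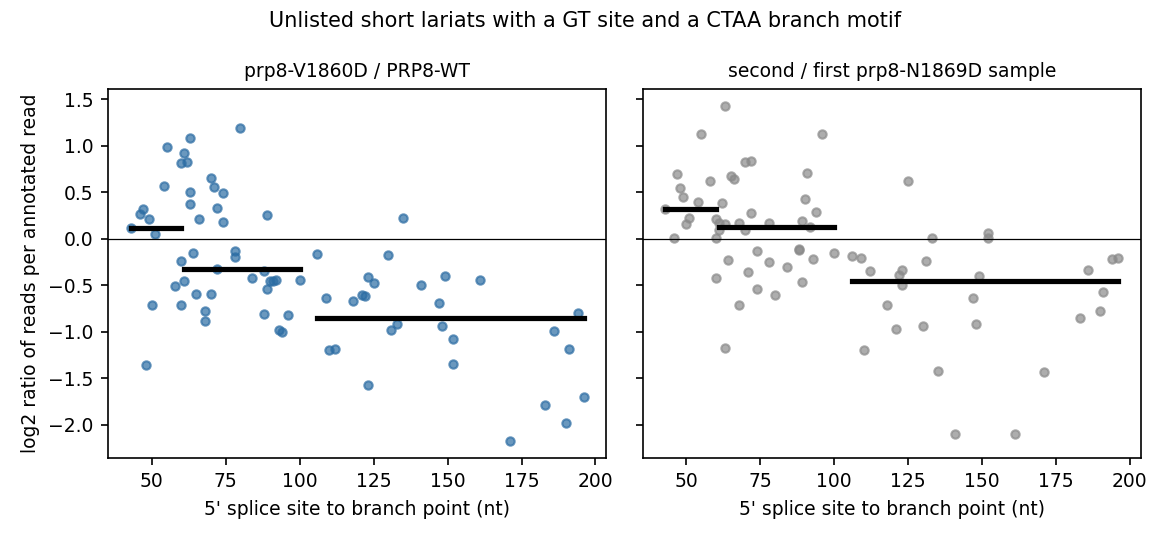
Log2 ratio of reads per annotated read for 74 unlisted lariats with a GT site and a CTAA branch motif, against the distance from 5' splice site to branch point in nt, on the left prp8-V1860D over PRP8-WT and on the right the second over the first prp8-N1869D sample. Black bars are medians of lariats of up to 60 nt, of over 60 and up to 100 nt and of over 100 nt. On the left 27 of the 28 longest lie below 0.

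In 3 places more than 1 of these sites used the same branch point, so that the sites can be compared with transcript level in common. In MRX4 a site at XVI:231379 makes a lariat of 183 nt and a site at XVI:231500 one of 62 nt.
MRX4, longer lariat: gattcaGTGCGTataaaggc
MRX4, shorter lariat: gagaagGTAAGAagaacgcg
The longer took 431 of 751 reads in PRP8-WT, 57.4% with a lower limit of 53.8%, and 75 of 419 in prp8-V1860D, 17.9% with an upper limit of 21.9%. The prp8-N1869D samples had 23.1% and 11.3%. Antisense to YPL216W a lariat of 152 nt took 8.79% of the reads beside one of 89 nt in PRP8-WT and 3.04% in prp8-V1860D, with intervals apart. Near BLM10 a lariat of 123 nt took 75.5% (69.9 to 80.4) beside one of 96 nt in PRP8-WT, and 64.6% (51.8 to 76.1) in prp8-V1860D. The prp8-N1869D samples had 83.6% and 61.5% near BLM10, farther apart than the strains, and 2.56% and 2.34% antisense to YPL216W. Counting all 5 combinations, the longer lariat was lower in prp8-V1860D in 5, with intervals apart in 3. The 3 combinations in MRX4 share sites and are not independent.

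The unlisted lariats with the most reads were those of BDF2, a bromodomain protein gene, with 12305 and 5864 reads and a ratio of 0.787 (0.763 to 0.812), a 66 nt lariat between MRH4 and PUS2, with 10696 and 8208 and 1.27 (1.23 to 1.30), and a 147 nt lariat between ABD1 and PRP5, with 8164 and 3061 and 0.619 (0.594 to 0.646). In LSB3 a lariat of 70 nt had 5580 and 5321 reads and a ratio of 1.58 (1.52 to 1.64).

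Single pairs were compared last. Of 1408 unannotated pairs with at least 50 reads, 89 (6.32%) were at least 4-fold higher per annotated read in prp8-V1860D and 6 (0.426%) at least 4-fold lower, beside 16 of 961 (1.66%) in either direction between the prp8-N1869D samples. Of the 89 higher pairs 53 spanned over 1000 nt and 22 were mitochondrial. The median log2 ratio was 1.51 over the 214 pairs of over 1000 nt, of which 190 were higher, and 2.24 over the 34 mitochondrial pairs, all higher. It was -0.76 over the 41 inside aberrant pairs and -0.01 over the 523 mirror images. By reads, 84.1% of those over 1000 nt began with GT in prp8-V1860D and 82.0% in PRP8-WT, but 32.1% and 33.2% branched at an A, against 90.0% and 89.8% for annotated lariats. Whether the long pairs are lariats was not tested.

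The highest pair outside mitochondria ran from 455489 to 460041 on the plus strand of chromosome XII, in the ribosomal DNA repeats antisense to RDN37-1, with 0 reads in PRP8-WT and 87 in prp8-V1860D, at least 47.9-fold higher against 3 counts per library, with an exact lower limit of 38.1 for the ratio. The prp8-N1869D samples had 0 and 1. This pair begins with GAATTC, without a GT, and its branched base is a C rather than an A. The next ran from 105647 on chromosome III, between ILV6 and STP22, to 107233 in VMA9, with 6 and 54 reads, a ratio of 14.9 (6.40 to 42.3), and the prp8-N1869D samples had 95 and 2. A pair antisense to MRM2 from 253204 to 253253 on chromosome VII had 12 and 76 reads, a pair antisense to RPS24A from 306470 on chromosome V 26 and 160, and a pair from NUP116 at 366378 on chromosome XIII 45 and 269. Their ratios were 10.5, 10.2 and 9.87. At the low end stood a pair antisense to YDR003W-A from 454898 to 454744 on chromosome IV, with a GTATGT and 60 and 6 reads, the RPL16B and RPS8B inside pairs described above, with 108 and 12 and with 71 and 8 reads, the IMD4 alternative branch point and a NOG2 pair shifted by 2 nt, with 53 and 6.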

How the data were processed

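Lariat libraries of PRP8-WT and prp8-V1860D were compared, and 3 libraries of prp8-N1869D gave the spread. The deposited tables hold counts of branch-spanning reads per pair, per annotated intron and per aberrant 5' splice site. The submitters' processing notes name Trimmomatic, Bowtie2 and build R64, with releases not given in the sources used here. Per the file headers, annotated counts take branch points within 2 nt, and aberrant sites are those over 5 nt and under 1000 nt away from the annotated one. Counts carry no molecular identifiers, so intervals cover counting error only. Another 68 columns of per-sample values were not used.

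Groups came from the labels, and technical libraries, 2 for the second prp8-N1869D sample, were added together. Recounts from the pair table equalled the deposited annotated and aberrant counts in 280 of 280 introns in both strains. Gene symbols were matched for all 280 introns, 279 of which began with GT and 279 had an A at the branch point. Shares are reads over all annotated reads, and ratios add 0.5 reads where given as log2. Intervals are exact Clopper-Pearson or exact conditional binomial. Pairs were classed by their ends, as mirror images within 10 nt, by span, or as mitochondrial. Sequences are from RefSeq, build R64, and positions count from 1. The named introns were the 6 highest and 6 lowest share ratios and aberrant ratios, the 5 with most aberrant reads, 4 and 4 alternative branch ratios, 5 and 5 single pairs, and 2 introns a list. Members, lists and limits were chosen with earlier results of these data known. PTC7, RCF3, MCR1, CPT1, single sites, unlisted lariats and group II introns were chosen with their values in view.

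Scaling factors from edgeR 4.0.16 and DESeq2 1.42.0 (R 4.3.3) served only as alternatives for the counts. Everything else ran in Python 3.11.15 (scipy 1.17.1, pandas 2.3.3, numpy 2.4.6), with figures from matplotlib 3.10.9. They were tested on simulated data. Alternatives covered scaling, minimum reads, pseudocount, fold, denominators and leaving out introns or a technical library.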

Additional observations from a re-analysis of the deposited data

How the results depend on the processing

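Of 41 alternatives for the comparisons, 21 stayed within 1.5 times a count or within a value's counting interval. Most of the 41 were counts, for which no reversal was defined. Among the alternatives of ratios, which could reverse, 0 did. The 22 introns past 1.5-fold became 38 with no minimum and 2 at 2-fold. The 32 introns with a 2-fold aberrant ratio became 11 with a minimum of 50 reads, 2 higher and 9 lower, and 14 when chosen by the prp8-N1869D samples. The inside ratio of 0.740 was 0.822 without the 5 introns richest in aberrant reads, 0.672 with GT sites only and 0.675 without RPS21B. The ratio of all unannotated reads, 1.16, was 1.15 for pairs with 2 or more reads, 1.13 per lariat read, 1.10 per annotated read outside ribosomal protein genes, and 1.03 without mirror images, pairs over 1000 nt and mitochondrial pairs. The 95 single pairs became 238 with a minimum of 20 reads, 47 with 100 and 298 at 2-fold. The 11 alternative branch ratios became 6 with a minimum of 50 reads and 4 when chosen by the prp8-N1869D samples. The short intron ratio of 1.30 was 1.23 without the 5 introns with the most reads. Leaving out either technical library of the second prp8-N1869D sample gave 37 to 45 introns past 1.5-fold where both gave 31, 6 to 10 aberrant ratios where both gave 10, 7 to 15 alternative branch ratios where both gave 13, and 13 to 27 single pairs where both gave 16. RCF3 alone reversed among the named introns, at 0.21 with all branch points. DESeq2 and edgeR scaling moved log2 ratios by -0.02. No paired analysis was possible because the strains have 1 library each. Depth limits introns under 50 reads, 24 of 280.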

Other observations

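In the 10 genes with 2 introns, reads that joined the 5' splice site of intron 1 to the branch point of intron 2, as a lariat that skips the exon between them would, were 67 beside 20078 annotated intron 2 reads in PRP8-WT and 33 beside 14756 in prp8-V1860D. The share was 0.333% (0.258 to 0.422) and 0.223% (0.154 to 0.313), with overlapping intervals, and 0.121% and 0.0502% in the prp8-N1869D samples. VMA9 held 39 and 15 of these reads, 0.470% (0.335 to 0.642) and 0.200% (0.112 to 0.329). DYN2, which encodes a dynein light chain, had 13 beside 33 and 1 beside 26, 28.3% (16.0 to 43.5) and 3.70% (0.0937 to 19.0), with overlapping intervals. SUS1, a gene of transcription-coupled mRNA export, had 6 and 7.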
